A study of Mus musculus with 4 samples.

Results

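The genes described here belong to families that make, break down and read the cyclic nucleotides cAMP and cGMP, though not every member does so. The families are adenylyl and guanylyl cyclases, phosphodiesterases, subunits of protein kinase A, cGMP-dependent protein kinases, RAP exchange factors and CREB family transcription factors. The genes were chosen by symbol from the deposited count table, 61 of whose 23420 genes matched. The 57 whose 4 counts summed to 15 or more were kept. The choice used no difference between the groups. The genes closest inside the limit were Gucy1b2 with a total of 16 counts and Gucy1a2 with 32, and those outside it were Gucy2g with 8, Pde6b with 6, and Gucy2d and Gucy2f with 0.

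The study measured RNA in residual β-cells, the cells left after massive ablation, sorted by FACS from mice that carry DTA (the A chain of diphtheria toxin) and were given doxycycline for 10 days. There were 2 libraries labelled Bmal1KO (genotype Bmal1KO/DTA, here KO 1 and KO 2) and 2 labelled Bmal1Het (genotype Bmal1+/- with DTA, here Het 1 and Het 2), so DTA and doxycycline were shared by both groups and no group had both copies of Bmal1 or was free of ablation. The promoter that drives DTA, the way Bmal1 was deleted, and the sex and age of the mice are not stated in the labels. Sex-linked transcripts differed between the labels: Xist had 8.67 and 38.8 CPM in KO-labelled libraries, against 72.3 and 67.5 CPM in heterozygous-labelled ones, and the Y-linked Ddx3y had 89.1 and 23.8 CPM, against 20.5 and 12.1 CPM. KO 1 was lowest for Xist and highest for Ddx3y, and neither difference passed (edgeR adjusted p = 0.233 and 0.176), while the part of sex in the results was not tested. Each library held both Xist and Ddx3y reads, and whether it mixed material of both sexes was not tested. The labels do not say whether the libraries came from separate or pooled animals. The p-values thus reflect how much these libraries vary, which could be technical variation.

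In β-cells, cAMP made by adenylyl cyclases in response to incretin hormones raises glucose-dependent insulin secretion through protein kinase A and through the exchange factor EPAC2. Phosphodiesterases hydrolyse cAMP and cGMP and so end the signal. CREB is phosphorylated by protein kinase A and drives transcription from cAMP response elements, and cGMP acts mainly through its own kinases, phosphodiesterases and channels.

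Totals per library were between 31056116 and 38020488 counts. Values below are CPM, that is counts scaled to a common library size with edgeR's TMM factors, on which a count of 3 equals 0.0774 to 0.0936 CPM. Arntl, which encodes BMAL1, was measured at 75.8 and 65.6 CPM in KO-labelled libraries, against 23.0 and 14.98 CPM in heterozygous-labelled ones, a log2 fold change of 1.89 (SE 0.24) with an adjusted p of 0.0175 by edgeR's quasi-likelihood test. The targeted gene was thus higher under the KO label, and counts over the whole gene do not separate intact from deleted transcripts, so each library is named by its label. Without heterozygous replicate 2 its adjusted p was 0.0724. The sorted cells carried their defining transcripts, with Ins2 at 194482 and 168789 CPM in KO-labelled libraries, against 151669 and 187237 CPM in heterozygous-labelled ones. Of the 10 β-cell markers, 8 had negative log2 fold changes and 7, Pdx1, Mafa, Nkx6-1 and Ins1 among them, were lower in both KO-labelled libraries without overlap. With edgeR 3 fell: Ucn3 (log2 fold change -2.04, adjusted p = 0.0160), G6pc2 (-0.96, adjusted p = 0.0175) and Slc30a8 (-0.92, adjusted p = 0.0230).

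Markers of other cells were present too. The 10 immune markers summed to 280 and 810 CPM in KO-labelled libraries, against 235 and 258 CPM in heterozygous-labelled ones. The 10 stromal markers summed to 133 and 362 CPM in KO-labelled libraries, against 59.8 and 17.5 CPM. The 8 endothelial markers summed to 39.8 and 22.5 CPM in KO-labelled libraries, against 15.2 and 11.7 CPM. With edgeR, 3 of 8 tested stromal markers rose (Pdgfra, at 0 in both heterozygous-labelled libraries, Lum and Col1a2), and 0 of 9 immune and 0 of 5 endothelial ones passed, of which 4 and 3 had an unadjusted p under 0.05. Of the stromal markers, limma-voom called 0, limma-trend 3 and DESeq2 4. DESeq2 also called 2 immune and 2 endothelial markers higher, and limma-voom and limma-trend called 0 of each. The 2 PP-cell markers summed to 2323 and 4621 CPM in KO-labelled libraries, against 1601 and 1277 CPM. DESeq2 called 2 of them higher and edgeR 0. The 11 acinar markers summed to 340 and 275 CPM in KO-labelled libraries, against 313 and 310 CPM; Bhlha15 makes up most of the sum, and 9 of the 10 tested had positive log2 fold changes (median 2.06), 5 with an unadjusted p under 0.05 and 0 passing. Prss2, for example, had 54.3 and 5.21 CPM in KO-labelled libraries, against 6.995 and 0.121 CPM. DESeq2 called 2 acinar markers higher and 1 lower. The 7 duct markers summed to 569 and 548 CPM in KO-labelled libraries, against 742 and 817 CPM, though 4 of the 6 tested had positive log2 fold changes. Krt7 was lower under the KO label (edgeR adjusted p = 0.0637) and was called by DESeq2, limma-voom and limma-trend. DESeq2 called Sox9 higher. The 4 δ-cell markers summed to 615 and 1523 CPM in KO-labelled libraries, against 1026 and 1115 CPM, and none passed with any of the tools. Of 6 α-cell markers, Irx2 rose (log2 fold change 2.64, edgeR adjusted p = 0.0230) and Gc fell (-0.92, edgeR adjusted p = 0.0286), and Gcg had 1629 and 3302 CPM in KO-labelled libraries, against 1340 and 1282 CPM. Of 5 tested neuronal and glial markers, Tubb3 rose (log2 fold change 0.99, edgeR adjusted p = 0.0439). Without heterozygous replicate 2 none of the β-cell, stromal, α-cell and neuronal markers named here as called passed (adjusted p 0.0557 to 0.298); without heterozygous replicate 1 only Ucn3, G6pc2 and Col1a2 did. Tubb3 also lost its call without KO replicate 1 (0.0736) and Pdgfra without KO replicate 2 (0.107). The part of other cells in the results below was not tested. In bulk RNA, fewer cells of a type and less RNA per cell cannot be told apart.

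Among the cyclic nucleotide genes, 2 rose under the KO label and none fell. The 2 were Prkg2, which encodes cGMP-dependent protein kinase II, and Rapgef5, which encodes an activator of RAP GTPases other than the EPAC proteins. The other 53 of the 55 genes tested did not pass an adjusted p of 0.05 (edgeR's quasi-likelihood test, Benjamini-Hochberg over 14649 genes); Gucy1a2 and Gucy1b2 had too few counts to test. Of all genes tested, 2.54% were called, 1.2% higher and 1.34% lower, so 2 of 55 is a share near that of the whole table. With edgeR, 12 of the 55 had an unadjusted p under 0.05, a share that was 16.9% over all genes. DESeq2 called 6 members higher and 2 lower, and it called 8.05% of all genes. Limma, in both forms run, called 2 higher and 1 lower. Over all genes limma-voom called 2.61% and limma-trend 3.39%. The libraries of the 2 labels did not overlap for 26 members, 17 of them higher and 9 lower under the KO label, against 49.0% of all genes tested, 25.3% higher and 23.8% lower. The median log2 fold change was 0.10 over the members and 0.024 over all genes. Without heterozygous replicate 2, 1 member was called higher (Prkg2) and, over all genes, 17 were higher and 8 lower, in place of 176 and 196.

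**Figure D1:**
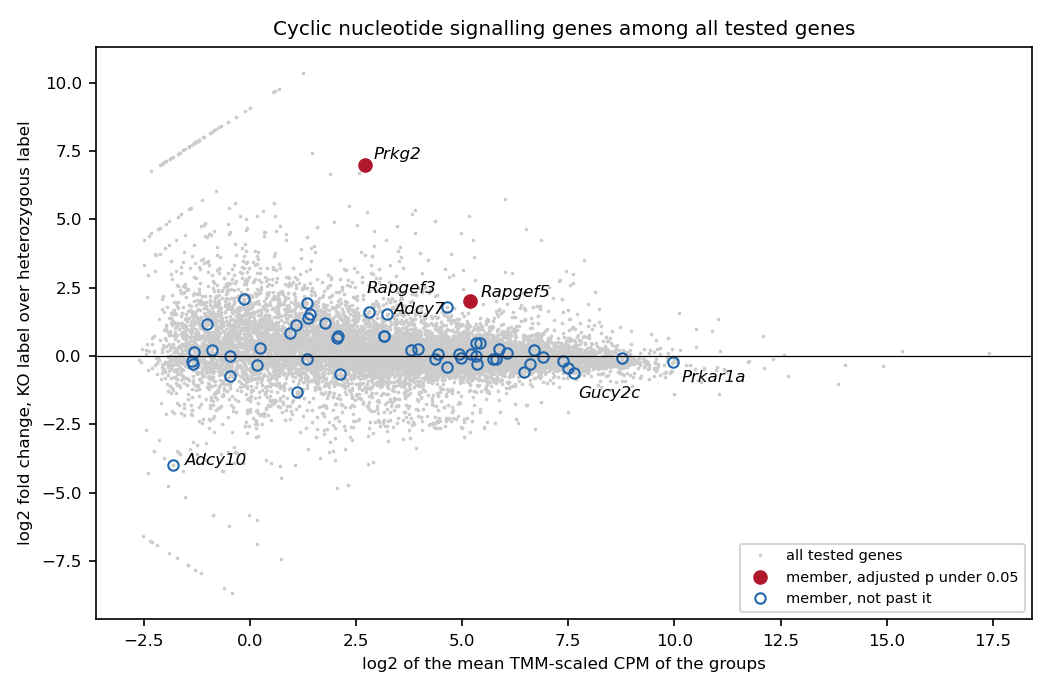
Log2 fold change of the KO label over the heterozygous label against the log2 of the mean TMM-scaled CPM, for all 14649 tested genes (grey) and the tested cyclic nucleotide genes except Adcy2, which was at 0 in both heterozygous-labelled libraries. Prkg2 and Rapgef5 (filled red) lie at 7.001 and 1.998, and most of the other members (open blue) lie near 0.

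The adenylyl cyclases make cAMP. All 10 family members with counts were tested and none passed with edgeR, 3 having an unadjusted p under 0.05. DESeq2 called 2 of them higher (Adcy2 and Adcy7) and limma-voom and limma-trend called 0. Per kb of exon, Adcy6, a cyclase inhibited by calcium, and Adcy9 made up most of the family's transcript level in every library. Adcy6 held 48.8% and 38.3% of the family's CPM per kb in KO-labelled libraries, against 41.4% and 36.9% in heterozygous-labelled ones. Adcy9 held 27.8% and 24.2% in KO-labelled libraries, against 41.1% and 47.1%. Its share was therefore lower under the KO label in both libraries. These shares use the union of annotated exons as the length, which overstates the length of genes with many isoforms.

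Adcy6 had 52.0 and 41.4 CPM in KO-labelled libraries, against 37.5 and 29.1 CPM in heterozygous-labelled ones (log2 fold change 0.49 ± 0.21 SE, adjusted p = 0.303 with edgeR). Adcy9 had 22.7 and 19.98 CPM in KO-labelled libraries, against 28.5 and 28.5 CPM (log2 fold change -0.42 ± 0.19 SE, adjusted p = 0.333 with edgeR). The groups did not overlap for either gene, but neither difference passed the test. Adcy3, activated by calcium and calmodulin in vitro, had 10.1 and 12.2 CPM in KO-labelled libraries, against 8.05 and 5.33 CPM (edgeR adjusted p = 0.333), and 1380 bases of its exons are shared with Cenpo, whose reads unstranded counting cannot separate. Adcy1 and Adcy8, the calmodulin-stimulated cyclases best known from neurons, were low. Adcy1 had 3.65 and 4.34 CPM in KO-labelled libraries, against 2.01 and 0.0605 CPM, and Adcy8 had 2.34 and 0.593 CPM, against 0 and 0.696 CPM. Adcy5, a calcium-inhibited cyclase, stayed under 1 CPM in every library.

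Adcy7 and Adcy2 were highest in KO 2. Adcy7, a cyclase prominent in blood cells, had 8.77 and 19.2 CPM in KO-labelled libraries, against 4.21 and 5.45 CPM in heterozygous-labelled ones (log2 fold change 1.53 ± 0.43 SE, adjusted p = 0.134 with edgeR). It passed with DESeq2 (adjusted p = 0.0213) and without KO replicate 1 (adjusted p = 0.0196). Adcy2 had 15 and 57 counts in KO-labelled libraries, against 0 and 0 counts in heterozygous-labelled ones. That is at least 26.6-fold higher than a floor of 3 counts over the heterozygous group (edgeR adjusted p = 0.0908, DESeq2 adjusted p = 0.00672). KO 2 was also the library with the highest immune and stromal marker sums, 810 and 362 CPM. It was highest as well for the α-cell, PP-cell and δ-cell marker sums, 4724, 4621 and 1523 CPM. The part of any of these cells in the values was not tested. Adcy10, the soluble cyclase activated by bicarbonate, went the other way, with 2 and 0 counts in KO-labelled libraries, against 25 and 14 counts. The ratio of its summed CPM was 0.0567, with a 95% exact binomial interval of 0.00664 to 0.219 that covers counting error only, and its edgeR adjusted p was 0.231.

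Guanylyl cyclases make cGMP. They comprise receptors in the cell membrane and a soluble enzyme of 2 subunits that responds to nitric oxide. The class here holds only genes whose symbol begins with Gucy and leaves out the receptor cyclases Npr1 and Npr2. Npr2 had 58.2 and 62.6 CPM in KO-labelled libraries, against 57.5 and 44.9 CPM in heterozygous-labelled ones. None of the 4 members tested passed with edgeR, 1 having an unadjusted p under 0.05. DESeq2, limma-voom and limma-trend each called 1 lower, Gucy2c. Gucy2c, the receptor for guanylin and uroguanylin best known from gut epithelium, held 93.3% and 95.3% of the class's CPM per kb in KO-labelled libraries, against 97.5% and 98.1% in heterozygous-labelled ones. It had 153 and 158 CPM in KO-labelled libraries, against 244 and 240 CPM. The means were 155.7 ± 3.46 CPM in KO-labelled libraries and 241.6 ± 2.91 CPM in heterozygous-labelled ones (SD, n = 2 each), so the gap was many times the spread within a label. Its log2 fold change was -0.63 (SE 0.13, 95% interval -0.95 to -0.32) with an edgeR adjusted p of 0.0624, short of the threshold. The adjusted p was 0.000313 with DESeq2, 0.0475 with limma-voom and 0.0378 with limma-trend. The gene for its ligand guanylin, Guca2a, was at 0 in every library. Guca2b, for uroguanylin, had 0 and 0.031 CPM in KO-labelled libraries, against 0 and 2.15 CPM.

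The nitric oxide-activated enzyme was measured through its subunit genes Gucy1a3 and Gucy1b3. Gucy1a3 had 6.82 and 2.62 CPM in KO-labelled libraries, against 2.89 and 1.21 CPM in heterozygous-labelled ones (log2 fold change 1.20 ± 0.67 SE, adjusted p = 0.431 with edgeR), with overlap between the labels. Gucy1b3 had 5.84 and 4.71 CPM in KO-labelled libraries, against 3.64 and 2.72 CPM (log2 fold change 0.73 ± 0.43 SE, adjusted p = 0.453 with edgeR), with none. Gucy2e, a membrane cyclase known from the retina, had 2.74 and 3.12 CPM in KO-labelled libraries, against 1.52 and 1.15 CPM (edgeR adjusted p = 0.384).

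**Figure D2:**
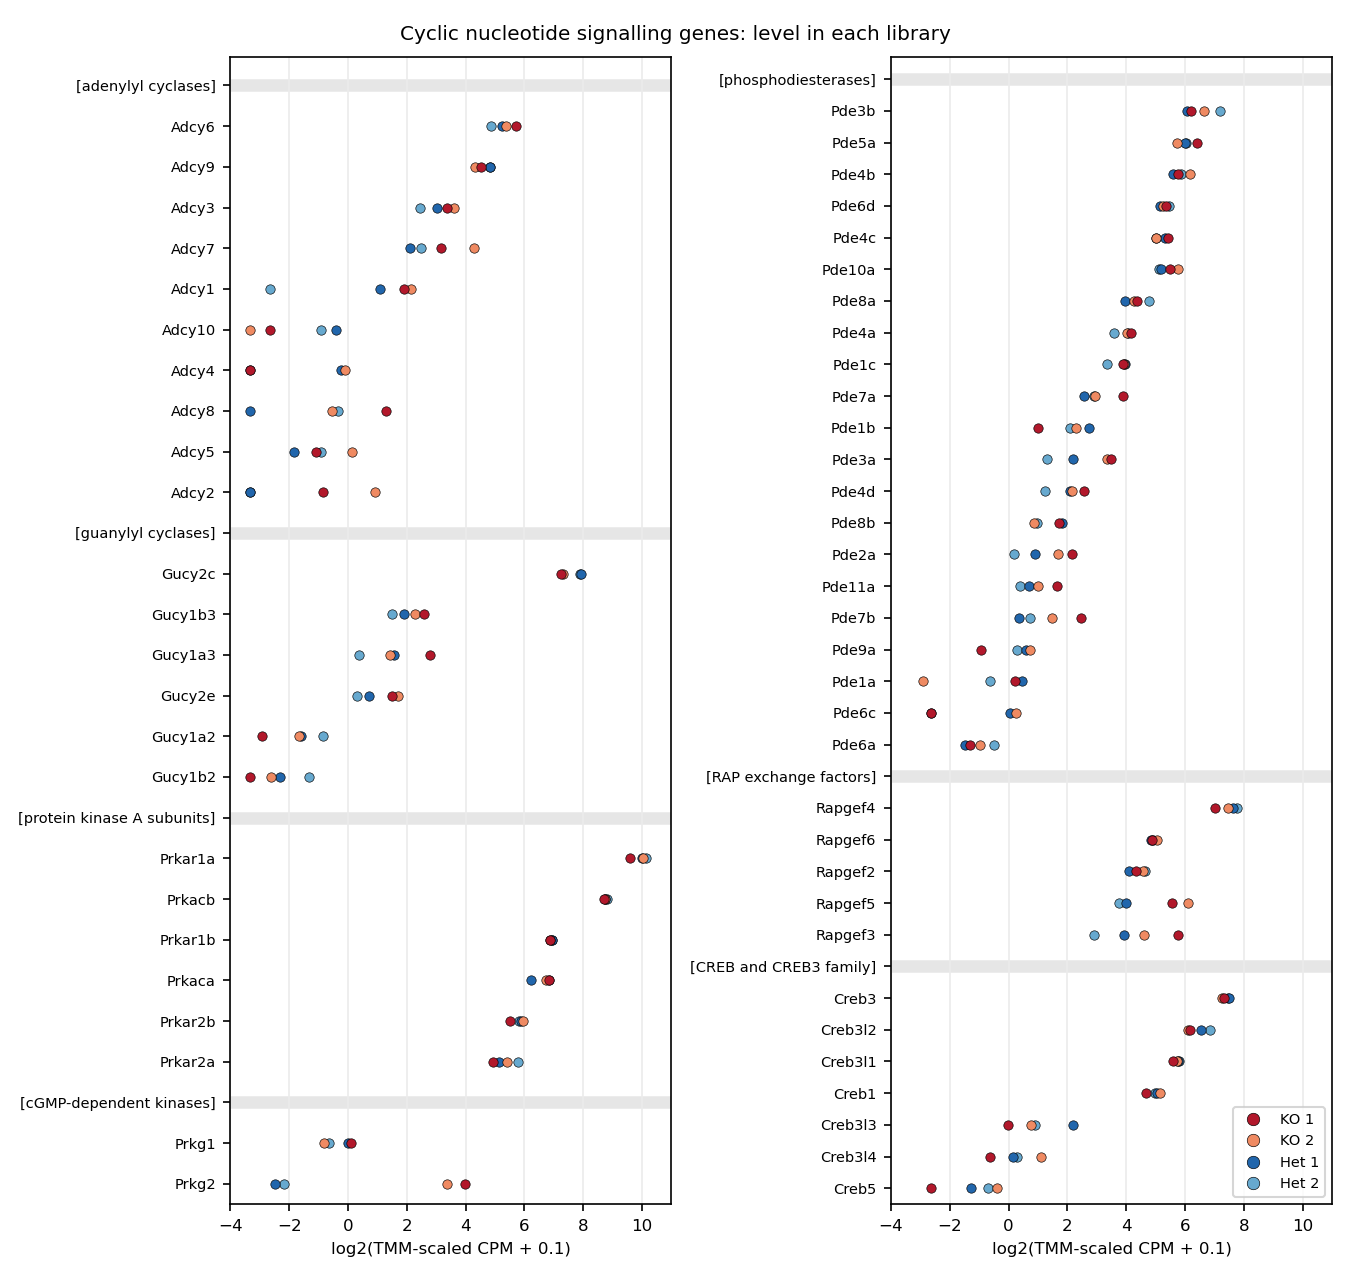
Level of each of the 57 genes in each library, as log2(TMM-scaled CPM + 0.1), with genes grouped by class and 1 point per library (red shades KO label, blue shades heterozygous label). For most genes the 4 points lie close together, whereas those of Prkg2 are split between 15.7 and 10.3 CPM under the KO label and 0.0774 and 0.121 CPM under the heterozygous label.

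Phosphodiesterases degrade cAMP, cGMP or both. The class of 21 genes includes Pde6d, which is not catalytic. None of the 21 passed with edgeR, limma-voom or limma-trend, 4 having an unadjusted p under 0.05 with edgeR, and DESeq2 called 1, Pde3a, higher. Their median log2 fold change was 0.21, with 13 positive and 8 negative, and the labels did not overlap for 7 genes, 33.3% of the class, all higher under the KO label, beside 49.0% of all genes tested and 25.3% in that direction. Per kb of exon, Pde3b, Pde5a, Pde4c, Pde4b and Pde8a were the main catalytic transcripts. Pde3b, the enzyme through which insulin lowers cAMP, held 17.2% and 23.9% of the catalytic family in KO-labelled libraries, against 18.5% and 32.5% in heterozygous-labelled ones. Pde5a, which is specific for cGMP, held 18.2% and 11.6% in KO-labelled libraries, against 16.1% and 13.5%.

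Pde3a, a cGMP-inhibited enzyme that hydrolyses cAMP, had 11.1 and 9.99 CPM in KO-labelled libraries, against 4.49 and 2.36 CPM in heterozygous-labelled ones. The groups did not overlap, and the log2 fold change of 1.62 (SE 0.41) had an adjusted p of 0.105 with edgeR and 0.0121 with DESeq2. Its close relative Pde3b had 74.4 and 100 CPM in KO-labelled libraries, against 67.5 and 144 CPM (log2 fold change -0.28, SE 0.34, 95% interval -1.07 to 0.52). The heterozygous-labelled libraries lay on either side of the KO-labelled ones for Pde3b, which sits on chromosome 7, 1.101 Mb from Arntl. Pde10a, a dual enzyme studied mainly in the striatum, had 45.3 and 54.4 CPM in KO-labelled libraries, against 36.5 and 34.8 CPM (log2 fold change 0.48 ± 0.18 SE, adjusted p = 0.229 with edgeR).

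Other phosphodiesterases did not pass either. Pde7b, specific for cAMP, had 5.36 and 2.65 CPM in KO-labelled libraries, against 1.19 and 1.54 CPM in heterozygous-labelled ones (log2 fold change 1.55 ± 0.59 SE, adjusted p = 0.245 with edgeR). Pde2a, which cGMP stimulates to hydrolyse cAMP, had 4.32 and 3.12 CPM in KO-labelled libraries, against 1.78 and 1.03 CPM (log2 fold change 1.40, edgeR adjusted p = 0.279), and 3955 bases of its exons are shared with Gm45837. Neither passed, and neither overlapped between labels. Among the enzymes studied in β-cells, Pde4b had 54.2 and 72.3 CPM in KO-labelled libraries, against 48.2 and 58.8 CPM, and Pde1c, which calmodulin activates, had 14.8 and 15.01 CPM, against 15.5 and 10.0 CPM. Pde8b had 3.17 and 1.72 CPM in KO-labelled libraries, against 3.41 and 1.85 CPM, and Pde4d had 5.87 and 4.31 CPM, against 4.13 and 2.24 CPM. The labels overlapped for Pde4b, Pde1c and Pde8b.

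Protein kinase A is a complex of regulatory subunits, which bind cAMP, and catalytic subunits, which they release. None of its 6 genes passed with any of the 4 tools, and none had an unadjusted p under 0.05. Prkar1a, the type I regulatory subunit, was the most abundant, with 781 and 1044 CPM in KO-labelled libraries, against 1014 and 1133 CPM in heterozygous-labelled ones. It held 56.1% and 62.2% of the class's CPM per kb in KO-labelled libraries, against 63.9% and 63.1%. Its log2 fold change was -0.23 with a 95% interval of -0.64 to 0.17. The catalytic subunit Prkacb had 416 and 433 CPM in KO-labelled libraries, against 430 and 454 CPM (log2 fold change -0.06, 95% interval -0.36 to 0.25). Prkaca, the other catalytic subunit, had 114 and 108 CPM in KO-labelled libraries, against 75.2 and 113 CPM (log2 fold change 0.23). Prkar2b, a type II regulatory subunit, had 45.5 and 61.6 CPM in KO-labelled libraries, against 58.4 and 56.4 CPM, with overlap. The 4 regulatory subunit genes all had log2 fold changes below 0, between -0.31 for Prkar2a and -0.05 for Prkar1b.

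Because BMAL1 with CLOCK binds the E-box CACGTG, and CREB the cAMP response element TGACGTCA, these letters were searched in RefSeq promoter windows of 300 bases (250 before to 50 after a transcript start, build GRCm38.p6). Each motif reads the same on both strands. Windows were found for 46 of the 57 genes. The called gene Prkg2 and Gucy2c had no window and so were not searched. There were 91 windows in all. The E-box was in 7 of them, 7.69%, and in 7.15% of all 32851 windows. The genes were Adcy1, Creb5, Gucy1a2, Prkaca, Prkar1a, Prkar1b and Prkar2b, of which Gucy1a2 was not tested and the others did not pass; 4 of them encode protein kinase A subunits. The response element was in 3 windows of 2 genes, Creb5 and Prkar1a, and in 1.79% of all windows. A match is a description of these letters only. The windows of Prkar1a (chr11:109650292-109650591 with the E-box and chr11:109650699-109650998 with the response element, both plus strand), Prkar2b (chr12:32061228-32061527, minus strand) and Creb5 (chr6:53287053-53287352, plus strand) show where the motifs lie, in capitals, 5′ to 3′. The other Prkar1a window with the response element overlaps the one shown and holds the same site. In Creb5 the E-box and the response element overlap by 2 bases.
Prkar1a, E-box: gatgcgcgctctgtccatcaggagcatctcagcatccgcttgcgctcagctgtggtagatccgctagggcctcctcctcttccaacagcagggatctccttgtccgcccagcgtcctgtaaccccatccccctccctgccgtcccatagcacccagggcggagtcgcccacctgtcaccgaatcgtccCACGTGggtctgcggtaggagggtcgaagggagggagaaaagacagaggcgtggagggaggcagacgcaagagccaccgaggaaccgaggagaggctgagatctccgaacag
Prkar1a, response element: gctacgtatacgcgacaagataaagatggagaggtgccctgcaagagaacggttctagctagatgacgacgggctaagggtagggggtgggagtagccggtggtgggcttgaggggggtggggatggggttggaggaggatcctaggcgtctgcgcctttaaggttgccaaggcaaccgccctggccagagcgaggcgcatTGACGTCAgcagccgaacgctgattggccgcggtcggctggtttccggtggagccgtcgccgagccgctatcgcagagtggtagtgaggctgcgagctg
Prkar2b: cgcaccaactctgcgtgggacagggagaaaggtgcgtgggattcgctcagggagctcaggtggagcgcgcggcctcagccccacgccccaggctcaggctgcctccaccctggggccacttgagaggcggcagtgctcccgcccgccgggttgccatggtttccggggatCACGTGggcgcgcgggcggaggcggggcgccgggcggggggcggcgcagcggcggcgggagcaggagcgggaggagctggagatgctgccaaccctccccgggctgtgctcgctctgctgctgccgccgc
Creb5: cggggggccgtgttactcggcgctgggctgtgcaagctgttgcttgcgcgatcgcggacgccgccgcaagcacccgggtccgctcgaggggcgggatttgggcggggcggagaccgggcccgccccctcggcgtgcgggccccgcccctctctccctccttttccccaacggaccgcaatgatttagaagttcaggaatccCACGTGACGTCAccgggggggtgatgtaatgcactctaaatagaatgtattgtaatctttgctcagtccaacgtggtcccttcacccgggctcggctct

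cGMP-dependent protein kinases are the main effectors of cGMP. Prkg2, the membrane-anchored kinase II known from intestine, kidney and bone growth, had the larger change of the 2 called genes. It had 516 and 331 counts in KO-labelled libraries, against 3 and 4 counts in heterozygous-labelled ones, or 15.7 and 10.3 CPM against 0.0774 and 0.121 CPM. Both KO-labelled libraries were high and both heterozygous-labelled ones were at about the 3-count floor. The means were 13.0 ± 3.80 CPM in KO-labelled libraries and 0.0992 ± 0.0308 CPM in heterozygous-labelled ones (SD, n = 2 each). The log2 fold change was 7.001 (SE 0.54, adjusted p = 0.00807 by edgeR's quasi-likelihood test). The ratio of summed CPM was 134, with a 95% exact binomial interval of 64.7 to 334, since only 7 counts stand behind the heterozygous value. On the log2(value + 1) scale of limma-trend the difference was 3.65. The call held with each library left out, at adjusted p between 0.00246 and 0.0274 by edgeR.

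Prkg1, the soluble kinase I of smooth muscle and platelets, had 0.974 and 0.468 CPM in KO-labelled libraries, against 0.903 and 0.545 CPM in heterozygous-labelled ones, and overlapped. Prkg2 therefore held 97.0% and 97.8% of the CPM per kb of the kinase pair in KO-labelled libraries, against 14.8% and 31.01%. Prkg2 lies on chromosome 5 from 98929773 to 99037351, minus strand (GENCODE M21). Of the 3 coding genes on each side, looked at after the values of Prkg2 were seen, none passed and 3 were tested. The adjacent Bmp3 had 8.58 and 4.03 CPM in KO-labelled libraries, against 1.65 and 1.03 CPM (edgeR adjusted p = 0.104), and the adjacent Rasgef1b had 14.8 and 11.3 CPM, against 7.56 and 4.99 CPM (edgeR adjusted p = 0.183). Hnrnpd overlapped, with 75.3 and 56.6 CPM in KO-labelled libraries, against 30.5 and 61.6 CPM (edgeR adjusted p = 0.486). Cfap299 was at about the floor in every library, and Gm11111 and Vamp9 were not analysed here.

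**Figure D3:**
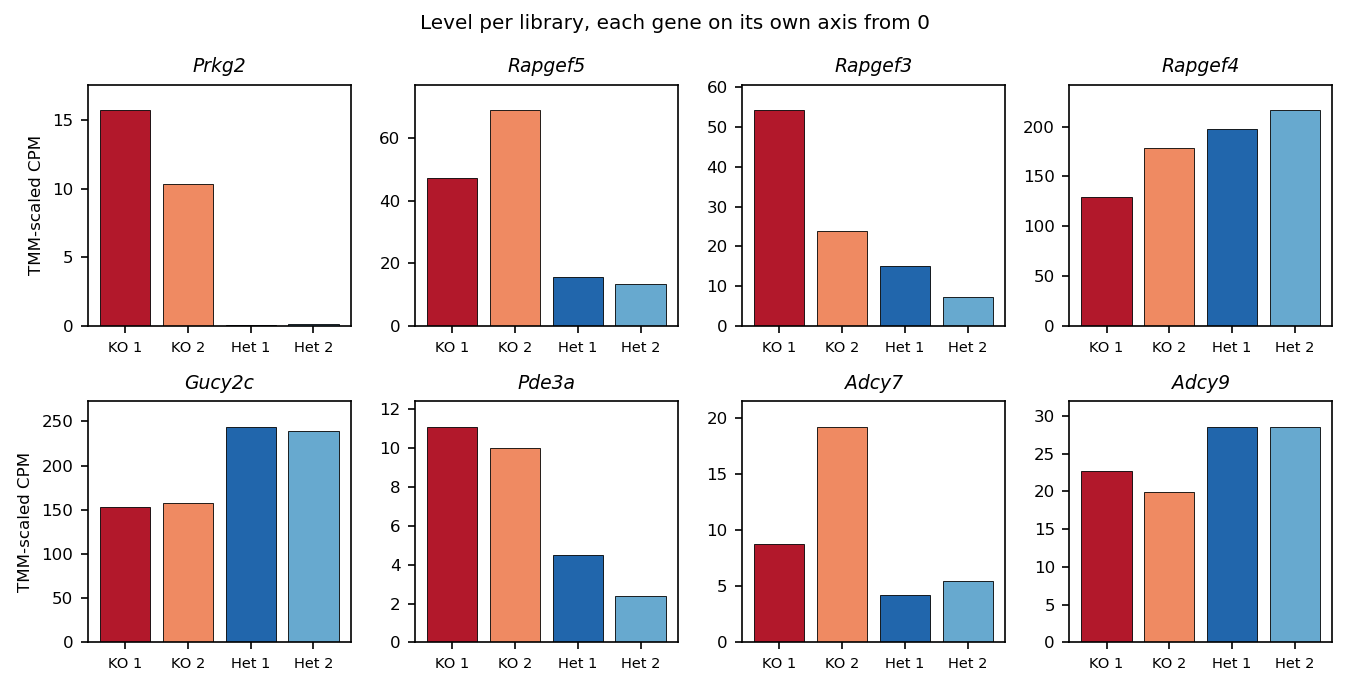
TMM-scaled CPM of 8 genes in each library, each panel on its own axis from 0, with KO-labelled libraries on the left. Prkg2 and Rapgef5 are higher in both KO-labelled libraries, Gucy2c and Rapgef4 are lower in both, and Adcy7 is highest in KO 2.

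The RAP exchange factors load GTP onto RAP GTPases. Rapgef3 (EPAC1) and Rapgef4 (EPAC2) are opened by cAMP itself, and EPAC2 is the form known for its part in insulin secretion. Rapgef2, Rapgef5 and Rapgef6 are not EPAC genes. Of the 5 genes, 1 rose, Rapgef5. It had 47.3 and 68.9 CPM in KO-labelled libraries, against 15.6 and 13.4 CPM in heterozygous-labelled ones. The means were 58.1 ± 15.3 CPM in KO-labelled libraries and 14.5 ± 1.58 CPM in heterozygous-labelled ones (SD, n = 2 each), a log2 fold change of 1.998 (SE 0.24, adjusted p = 0.0145 by edgeR's quasi-likelihood test). Both KO-labelled libraries were above both heterozygous-labelled ones. Leaving out heterozygous replicate 2 gave 1.88 with an adjusted p of 0.0804, so the call ended. Rapgef5 lies on chromosome 12 from 117516479 to 117759737, plus strand (GENCODE M21), and none of the 6 flanking coding genes passed the test. The closest to passing, Ncapg2, had 10.8 and 18.5 CPM in KO-labelled libraries, against 36.7 and 35.4 CPM (log2 fold change -1.30, edgeR adjusted p = 0.0663). Dnah11 had 4.41 and 4.96 CPM, against 1.24 and 0.424 CPM (log2 fold change 2.48, edgeR adjusted p = 0.116). RefSeq gives Rapgef5 a pair of promoter windows, shown because the gene is one of those called. Neither chr12:117516276-117516575 nor chr12:117533678-117533977, both plus strand, holds either motif, so no letters are in capitals.
Rapgef5, first start: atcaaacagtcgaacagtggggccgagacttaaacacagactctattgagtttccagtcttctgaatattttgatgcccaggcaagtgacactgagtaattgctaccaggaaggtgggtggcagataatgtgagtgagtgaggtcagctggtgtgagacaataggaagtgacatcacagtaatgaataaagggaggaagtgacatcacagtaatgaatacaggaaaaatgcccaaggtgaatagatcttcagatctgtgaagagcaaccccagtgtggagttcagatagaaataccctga
Rapgef5, later start: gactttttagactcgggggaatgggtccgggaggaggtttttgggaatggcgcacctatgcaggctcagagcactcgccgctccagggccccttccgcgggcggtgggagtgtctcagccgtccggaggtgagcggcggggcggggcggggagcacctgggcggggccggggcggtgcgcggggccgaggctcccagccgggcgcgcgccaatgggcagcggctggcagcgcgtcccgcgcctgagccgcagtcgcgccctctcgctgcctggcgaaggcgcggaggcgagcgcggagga

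The EPAC genes lay on opposite sides of 0. Rapgef3 had 54.2 and 24.0 CPM in KO-labelled libraries, against 15.1 and 7.32 CPM in heterozygous-labelled ones (log2 fold change 1.80 ± 0.46 SE, adjusted p = 0.107 with edgeR). It passed with DESeq2 (adjusted p = 0.00192) and without KO replicate 2 (log2 fold change 2.27, adjusted p = 0.0224), whereas without KO replicate 1 it was 1.07 with an adjusted p of 0.216. Rapgef4 had 129 and 178 CPM in KO-labelled libraries, against 197 and 216 CPM (log2 fold change -0.43 ± 0.18 SE, adjusted p = 0.303 with edgeR). Rapgef3 thus held 30.7% and 12.4% of the CPM per kb of the EPAC pair in KO-labelled libraries, against 7.47% and 3.45%. Neither difference passed, though the labels did not overlap for either gene. The order of the 4 libraries was the same for Rapgef3 and for the sum of endothelial markers (39.8 and 22.5 CPM in KO-labelled libraries, against 15.2 and 11.7 CPM). The sum of neuronal and glial markers had that order too (104 and 94.0 CPM in KO-labelled libraries, against 69.9 and 63.1 CPM). Not every marker in these sums kept the order, Esam and Elavl4 among those that did not. The Y-linked Ddx3y had the same order (89.1 and 23.8 CPM in KO-labelled libraries, against 20.5 and 12.1 CPM). So did Arntl (75.8 and 65.6 CPM in KO-labelled libraries, against 23.0 and 14.98 CPM). These matches were seen after the values, and the part of such cells or of sex in the result was not tested. Reads from the antisense genes annotated at Rapgef3 and Rapgef4 cannot be told apart from their own. The same holds at Adcy2, Adcy6, Pde3a, Pde7a, Pde8b and Pde9a. Rapgef2 and Rapgef6, which also act on RAP, did not pass either: Rapgef6 had 29.4 and 32.7 CPM in KO-labelled libraries, against 28.7 and 30.3 CPM.

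**Figure D4:**
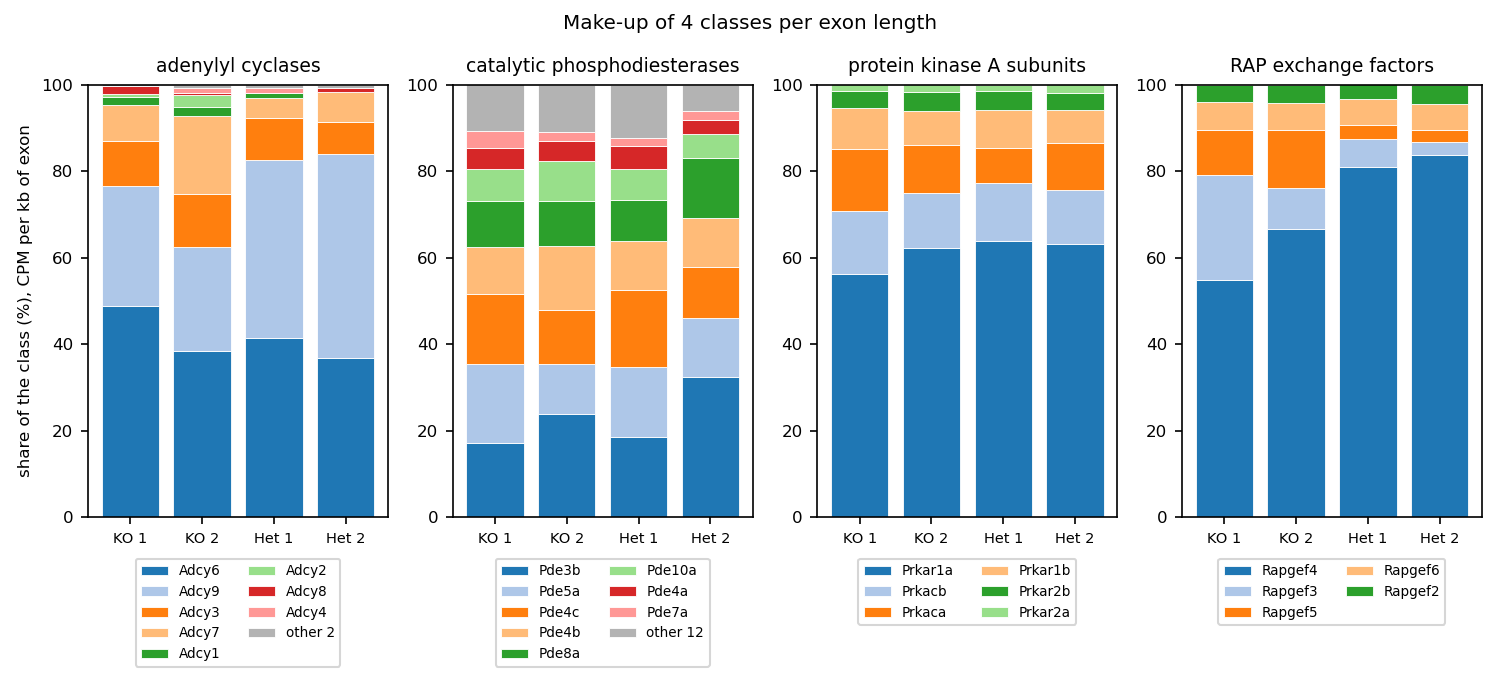
Share of each gene in the CPM per kb of exon of its class, per library, for 4 classes. Protein kinase A keeps much the same make-up in the 4 libraries, while Rapgef3 and Rapgef5 take a larger part, and Rapgef4 a smaller one, of the RAP exchange factors under the KO label.

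CREB family factors include the nuclear CREB1, which protein kinase A phosphorylates, and the CREB3 group, which is held in the endoplasmic reticulum membrane until cleaved. None of the 7 passed with edgeR, limma-voom or limma-trend, and 1 had an unadjusted p under 0.05 with edgeR. DESeq2 called 1 lower, Creb3l2. Creb1 had 25.4 and 35.3 CPM in KO-labelled libraries, against 33.3 and 31.3 CPM in heterozygous-labelled ones (log2 fold change -0.09, SE 0.22, 95% interval -0.60 to 0.42). Creb3l2, a regulator of secretory pathway genes, had 71.2 and 69.2 CPM in KO-labelled libraries, against 94.3 and 114 CPM. It did not overlap, with a log2 fold change of -0.57 (SE 0.16) and an adjusted p of 0.128 with edgeR and 0.0283 with DESeq2. Creb3l1 had 48.7 and 53.2 CPM in KO-labelled libraries, against 54.4 and 55.9 CPM (log2 fold change -0.12). Creb3l3, known from liver and intestine, was low, with 0.883 and 1.59 CPM in KO-labelled libraries, against 4.41 and 1.75 CPM (edgeR adjusted p = 0.406).

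**Figure D5:**
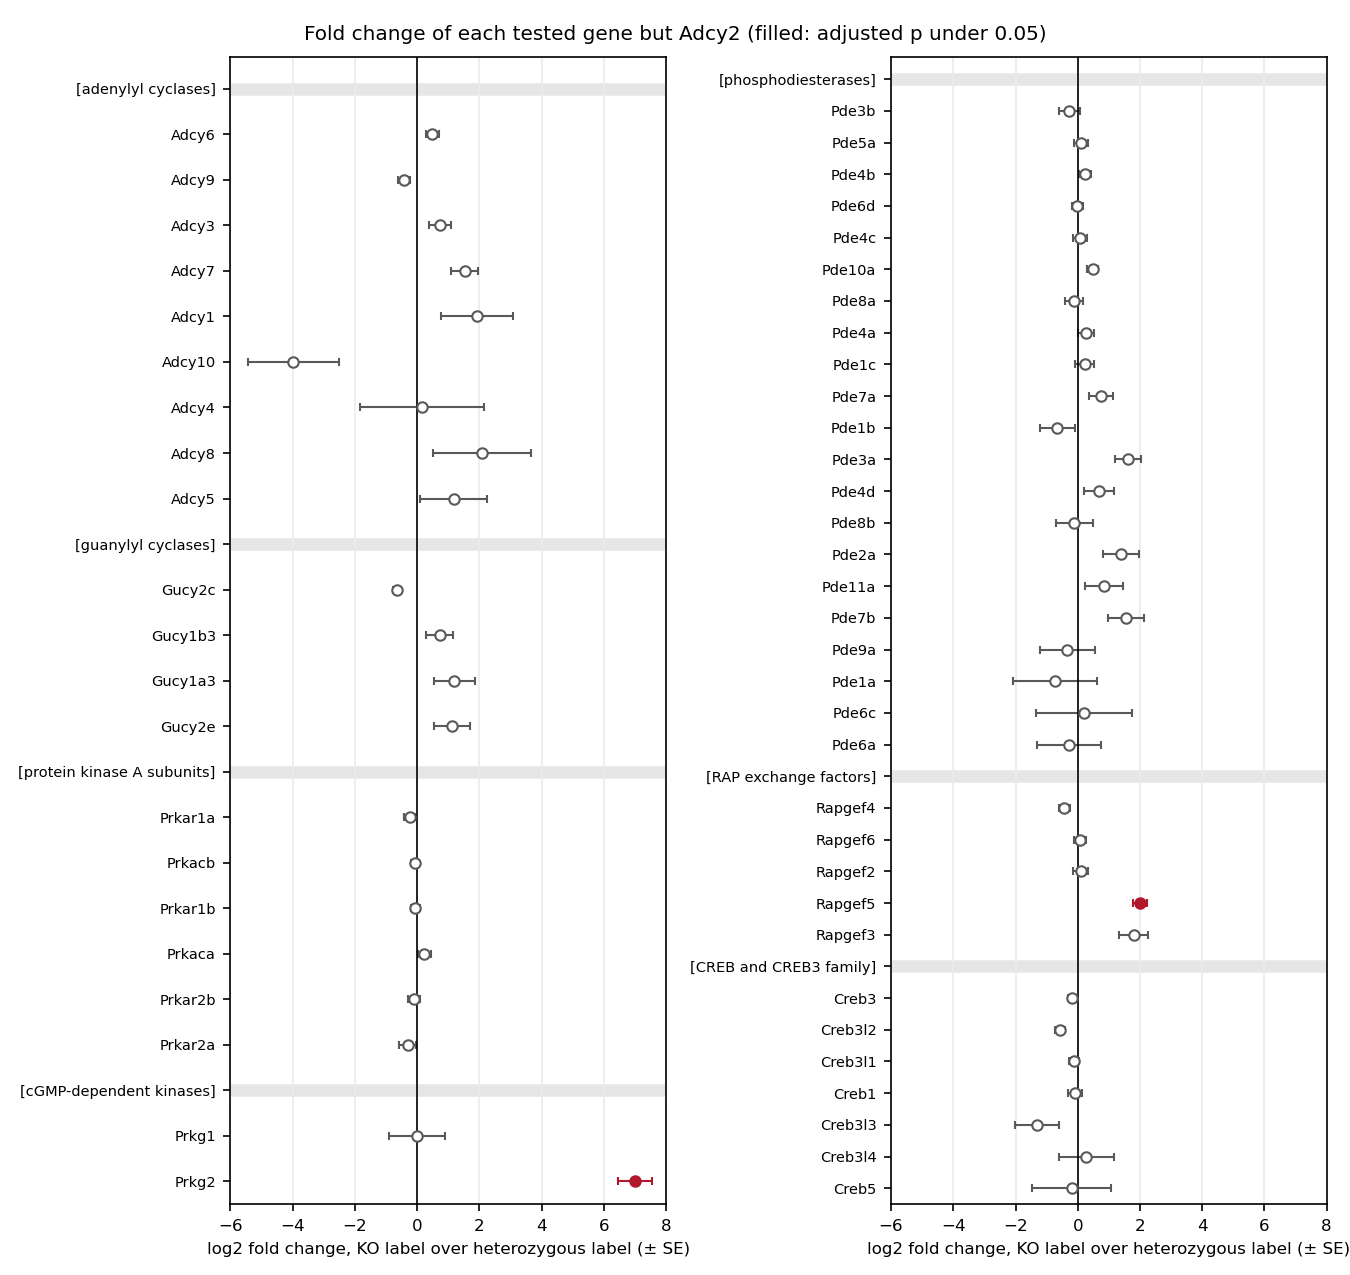
Log2 fold change of the KO label over the heterozygous label with its SE for each tested gene except Adcy2, grouped by class. Filled points passed an adjusted p of 0.05, which Prkg2 (7.001) and Rapgef5 (1.998) did; the largest negative value, Adcy10 (-3.97), rests on 2 counts under the KO label.

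The rest of the pathway was read from 8 lists, chosen with earlier results of these data known. Over all genes tested with edgeR, 2.54% were called and 16.9% had an unadjusted p under 0.05. The median log2 fold change over all genes was 0.024. Of 21 tested receptors that couple to stimulatory or inhibitory G proteins in islets, 3 rose and 1 fell (median log2 fold change -0.06). Gcgr, the glucagon receptor, had 534 and 382 CPM in KO-labelled libraries, against 160 and 119 CPM in heterozygous-labelled ones (log2 fold change 1.71, edgeR adjusted p = 0.0175). Ptger3, an inhibitory prostaglandin receptor, had 164 and 65.9 CPM in KO-labelled libraries, against 17.0 and 10.2 CPM (log2 fold change 3.08, edgeR adjusted p = 0.0229). Htr1d, a serotonin receptor, had 1.92 and 1.25 CPM in KO-labelled libraries and 0 in both heterozygous-labelled ones (edgeR adjusted p = 0.0481). Glp1r, the incretin receptor, fell, with 97.7 and 95.8 CPM in KO-labelled libraries, against 202 and 224 CPM (log2 fold change -1.14, edgeR adjusted p = 0.0159). Without heterozygous replicate 2 the adjusted p was 0.0855 for Gcgr, 0.0925 for Ptger3 and 0.0940 for Glp1r, and Htr1d lost its call with any library left out (0.0548 to 0.251).

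Of 19 G protein genes, 1 rose and none fell with edgeR, 4 having an unadjusted p under 0.05 (median -0.06). DESeq2 called 1 higher and 2 lower, limma-voom 1 higher, and limma-trend 1 higher and 1 lower. Gnai1, an inhibitory α subunit, had 45.0 and 34.99 CPM in KO-labelled libraries, against 14.5 and 19.0 CPM in heterozygous-labelled ones (log2 fold change 1.26, edgeR adjusted p = 0.0432). Of 14 AKAP anchors, which place protein kinase A in the cell, 1 fell (median 0.21). It was Sphkap, with 250 and 285 CPM in KO-labelled libraries, against 524 and 521 CPM (log2 fold change -0.97, edgeR adjusted p = 0.0213). Gnai1 lost its call without KO replicate 1 (adjusted p = 0.0695), heterozygous replicate 1 (0.195) or heterozygous replicate 2 (0.127), and Sphkap without heterozygous replicate 1 (0.0709) or 2 (0.115).

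Of 18 CREB target genes, 2 rose and 1 fell (median 0.59), beside 2.54% of all genes called and a median of 0.024. With edgeR, 10 of the 18 had an unadjusted p under 0.05, beside 16.9% of all genes tested. The list was chosen with earlier results of these data known, so these counts are a description only. Fos, an immediate early gene, had 365 and 163 CPM in KO-labelled libraries, against 54.0 and 71.2 CPM in heterozygous-labelled ones (log2 fold change 2.08, edgeR adjusted p = 0.0358). Rgs2, which dampens G protein signals, had 156 and 99.8 CPM in KO-labelled libraries, against 58.2 and 43.7 CPM (log2 fold change 1.33, edgeR adjusted p = 0.0453). Vgf, a secreted granule protein, fell, with 31.6 and 49.9 CPM in KO-labelled libraries, against 149.8 and 129 CPM (log2 fold change -1.77, edgeR adjusted p = 0.0175). Fos lost its call without heterozygous replicate 1 (adjusted p = 0.0834) or 2 (0.103), Rgs2 without KO replicate 1 (0.0579), heterozygous replicate 1 (0.0550) or 2 (0.232), and Vgf without heterozygous replicate 2 (0.0557). Fos and Rgs2 are also induced by stimuli that do not act through cAMP.

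With edgeR, no gene passed among 5 sources of cGMP (1 with an unadjusted p under 0.05), 18 regulators of protein kinase A and CREB (2), 7 cyclic nucleotide-gated channels (2) and 2 cAMP exporters (1). DESeq2 called 1 of these, the CREB regulator Crebzf, and limma-voom and limma-trend called none. Npr1, a natriuretic peptide receptor that is itself a guanylyl cyclase, had 16.1 and 15.6 CPM in KO-labelled libraries, against 11.2 and 7.32 CPM in heterozygous-labelled ones (edgeR adjusted p = 0.255). Abcc4, an exporter of cAMP, had 14.8 and 18.6 CPM in KO-labelled libraries, against 26.4 and 26.2 CPM (log2 fold change -0.65, edgeR adjusted p = 0.191).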

How the data were processed

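RNA from 4 libraries of sorted β-cells, 2 labelled KO and 2 heterozygous, was made into cDNA with a SMART-Seq v4 kit, per the labels' protocols, which does not mark strand. The authors deposited whole-number read counts per gene, with no normalization, which all main tests used. Another table that the authors deposited holds scaled values, read here as a signal and taken to a log2 scale, log2(value + 1), for limma-trend. STAR, edgeR and mm10 are named, without a role, in the submitters' processing notes; the counter, strand and annotation behind the counts are not stated in them.

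Genes that passed filterByExpr at a minimum count of 10 and a total of 15, 14649 in all, were compared in R 4.3.3 with the quasi-likelihood test of edgeR 4.0.16 on TMM-scaled counts, 2-sided, with the label as the only term and Benjamini-Hochberg adjustment at 0.05. DESeq2 1.42.0 and limma 3.58.1 were alternatives, as were other scalings, filters, each library left out and the replicate number as a block. Scripts were tested on simulated data. Intervals of a log2 fold change are at 95%, from the fit's SE; counting intervals and floors cover counting error only, since reads carry no molecular identifiers. Exon lengths and positions came from GENCODE M21. No table of protein sequences was used here.

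The members and gene lists were chosen with earlier results of these data known. Named were Arntl, all members past the threshold, the 2 members per class with the smallest p that did not pass, a fixed list of further members, and up to 4 genes per list past the threshold or else the 2 with the smallest p. Members outside this rule (Adcy10, Pde2a, Pde5a, Pde4c and others) were named after their values were seen. Reads were recovered from 100% of the scaled values within 0.01 of a whole number, an alternative added after seeing the data. The scale factor of each library was the median ratio of its scaled values to its raw counts.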

Additional observations from a re-analysis of the deposited data

How the results depend on the processing

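Scaling (DESeq2's size factors, upper-quartile factors, library totals, the 20 most abundant genes taken out) and filters left 2 members higher and 0 lower. DESeq2 called 6 higher and 2 lower, limma-voom and limma-trend 1 lower each, and an adjusted p of 0.1 gave 1 lower. With a library left out, 1 to 3 were higher; a lone library is then assumed to vary like the other group. Over all genes, 176 were higher and 196 lower; the counts were 619 and 560 with DESeq2, 378 and 350 at an adjusted p of 0.1, 266 higher at a mean of 5 CPM or more, and 17 to 404 higher and 8 to 422 lower with a library left out. Arntl ranged over 1.61 to 2.23 with a library left out, and had an adjusted p of 0.0724 without heterozygous replicate 2. The cause was not tested. Reads recovered from the scaled table, an alternative chosen after seeing the data, gave 176 and 196. Each library's scale factor was taken from its raw counts, so this is no separate check. Same-numbered libraries did not deviate together (correlation -0.017); with the replicate block, 3 members (Rapgef3 added, adjusted p = 0.00427) and 313 genes were higher. Over 33 named members and 16 alternatives, no called value changed sign. With 2 libraries a label, members under 1 CPM rest on few counts.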
